A study of Mus musculus with 15 samples.

Results

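Long intergenic noncoding RNAs (lincRNAs) that were detectably expressed in whole mouse lung were followed through bleomycin injury. The 163 lincRNAs were selected on measured values: each carried the gene type lincRNA in the GENCODE M21 annotation and reached a mean of at least 2 CPM (counts of the gene per 1000000 counts of the library) over the 15 libraries. They were 163 of 2889 genes of that type in the count table, which listed 33340 genes in all; 79 of the 2889 were at 0 throughout. Since the mean ran over all days, 15 of them had a day 0 mean under 2 CPM and passed through later libraries, and 10 had a mean under 2 CPM at every later day. All 163 passed the filter on low counts that preceded testing. Just inside the threshold were Pvt1 with 2.034 CPM and Gm36723 with 2.030 CPM, and just outside were Gm32633 with 1.97 CPM and 1200007C13Rik with 1.969 CPM.

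Bleomycin breaks DNA and, given into the trachea, causes an inflammatory injury that is followed by scarring. The 15 libraries were made from polyadenylated RNA of whole lungs of male C57BL/6 mice aged 10 to 12 weeks. The groups were 4 day 0 libraries titled as controls, and libraries taken 7 days (4), 14 days (4) and 21 days (3) after bleomycin was put into the trachea once, at 5 U/kg. No genetic change is named for these mice, and no group given vehicle alone was analysed here. Day 0 replicate 4 is titled a control while its treatment label names bleomycin. It was kept at day 0. The libraries are described as biological replicates, but the sources used here do not tie each library to a single animal, so p-values measure the spread between these libraries.

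LincRNAs are transcribed and usually spliced and polyadenylated like messenger RNA, but carry no long open reading frame. Some build nuclear bodies (Neat1 scaffolds the paraspeckle, and Malat1 sits in nuclear speckles), some act near their own gene on neighbouring genes, and some are mainly precursors from which microRNAs or small nucleolar RNAs are cut. A few are tied to macrophage activation and to matrix production by fibroblasts. Most of the 163 are known by provisional names only, 80 of the Gm kind and 50 of the Rik kind.

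Total counts lay between 15652008 and 18020661 per library. Lung markers were present in every library, with Sftpc (surfactant protein C, alveolar type 2 cells) at 2244 CPM or more, Ager (alveolar type 1 cells) at 1057 CPM or more and Pecam1 (endothelium) at 399.5 CPM or more. Mitochondrial genes took a share of the counts that varied among libraries of the same day. It was 2.28% and 2.31% in day 0 replicates 1 and 2 against 4.22% and 4.04% in replicates 3 and 4, 2.03% to 2.15% in all day 7 libraries, 2.1% in day 14 replicate 1 against 3.74% to 4.14% in the other day 14 libraries, and 4.01%, 3.18% and 2.66% at day 21. The labels name no batch. LincRNA levels moved with this share among the libraries of day 0 and of day 14. At day 21 the summed level of all the lincRNAs did not, while the sum without Neat1 and Malat1 did. Values are therefore given within the libraries under 2.5% (2 of day 0 and 4 of day 7) and within those over 3.5% (2 of day 0 and 3 of day 14). Those from a fit with the share as a covariate are given too, beside pooled values that they bear on. The part of the share in any result was not tested.

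The lincRNAs held between 2362 and 5267 CPM per library in all. Their sum was 3281 and 3356 CPM in the low-share day 0 libraries and 5267 and 4867 CPM in the others. It was 2511, 2577, 2713 and 2362 CPM at day 7. At day 14 it was 2738 CPM in the low-share library and 4349, 4574 and 4070 CPM in the others, and at day 21 it was 3461, 3976 and 3648 CPM. Every day 7 library therefore lay under every day 0 library, the low-share ones included, while the low-share day 14 library lay just above the day 7 libraries. Neat1 took 39.7% of the members' mean CPM, and Neat1 and Malat1 together 50.1%. Without these 2 the sum was 1765 to 2202 CPM at day 0, 1446 to 1598 at day 7, 1547 to 1988 at day 14 and 1753 to 2008 at day 21, so the day 7 libraries were also lowest in the remaining 161, with day 14 replicate 1 within their range.

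**Figure D1:**
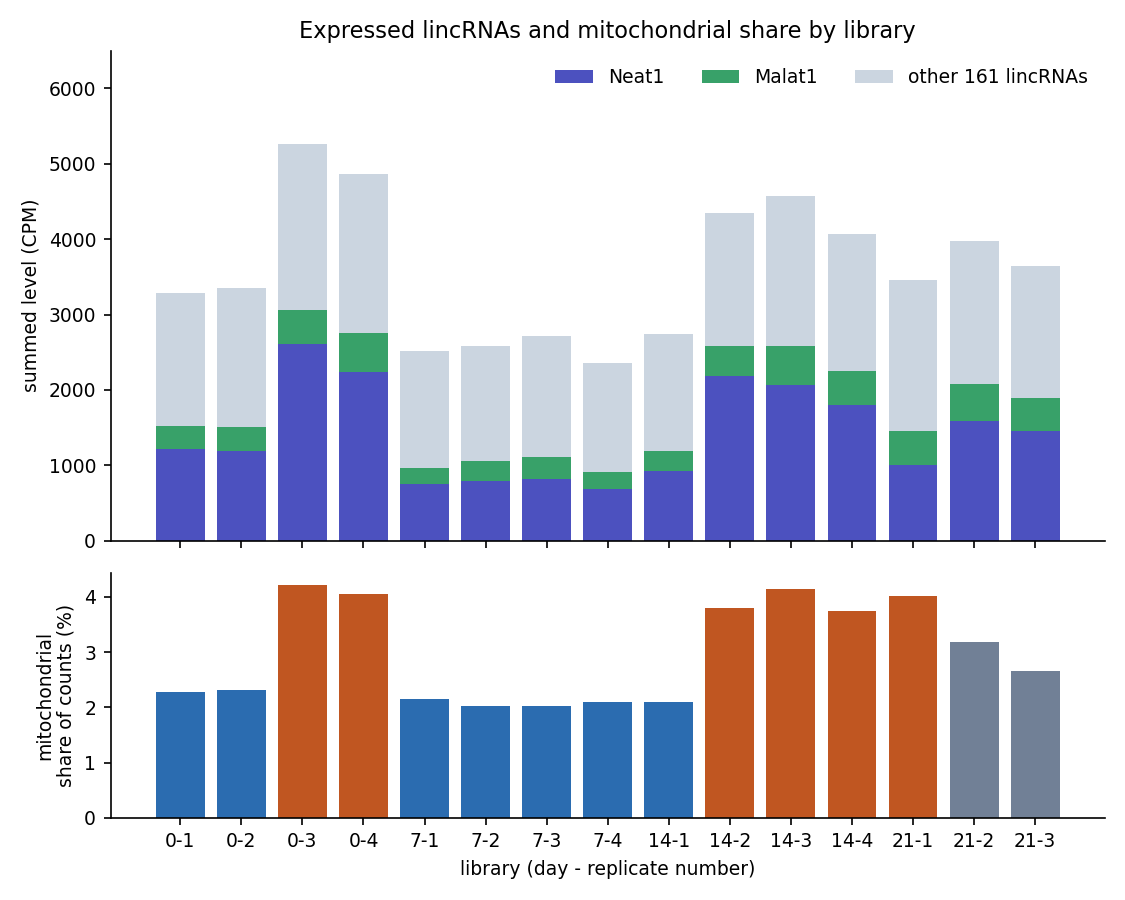
Summed level of the 163 lincRNAs (upper panel, CPM, stacked as Neat1, Malat1 and the other 161) and share of counts from mitochondrial genes (lower panel, %) in each library, labelled day and replicate number; blue bars lie under 2.5%, orange bars over 3.5% and grey bars between. The 4 day 7 libraries hold 2362 to 2713 CPM and all have a low share, and the 2 high-share day 0 libraries hold 4867 and 5267 CPM.

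Within day 0, 80 of the 163 lincRNAs (49.1%) were higher in both high-share libraries than in both low-share ones and 21 (12.9%) were lower in both, against 28.8% and 26% of all genes tested. The median log2 ratio of high-share to low-share libraries was 0.33 for the lincRNAs and 0.02 for all genes. At day 14, 89 lincRNAs (54.6%) were higher in all 3 high-share libraries than in the single low-share one and 22 (13.5%) were lower in all 3, against 30.9% and 27.2% of all genes. The median log2 ratio at day 14 was 0.34, against 0.04 for all genes. The lincRNAs as a set were thus higher where the mitochondrial share was higher on these days. At day 21 the library with the highest share, 4.01%, had the lowest sum, 3461 CPM. Without Neat1 and Malat1, however, the day 21 sums were 2008, 1897 and 1753 CPM at shares of 4.01%, 3.18% and 2.66%, so the remaining lincRNAs were higher where the share was higher.

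Day 7 was the day of low lincRNA levels. By edgeR's quasi-likelihood test on the whole table, with Benjamini-Hochberg adjustment over 17457 genes and calls made where the adjusted p was under 0.05 and the fold over 1.5, 56 of the 163 lincRNAs changed between day 0 and day 7, 3 higher and 53 lower. Over all genes tested 16.1% were called in this comparison, 8.78% higher and 7.36% lower. The median log2 fold change of the lincRNAs was -0.48, with a middle range (quartiles) of -1.04 to -0.02, against 0.01 for all genes, and 125 of 163 (76.7%) had a value below 0 against 49.1% of all genes. Of the 53 that fell, 46 (86.8%) had all 4 day 7 libraries below all 4 day 0 libraries, which was near the 84.7% of all 1285 genes called lower. In 47 (88.7%) all day 7 libraries were below both low-share day 0 libraries, against 87.7% of all genes called lower. Entering the share as a covariate gave 14 calls (3 higher, 11 lower), of which 12 were among the 56, and 7.27% of all genes were called. Within the low-share libraries it was 30 of the 162 that could be tested (7 higher, 23 lower), of which 21 were among the 56, and 12.8% of all genes were called. The median log2 fold change was -0.35 with the covariate and -0.39 within the low-share libraries, so the shift below 0 was smaller but present in both, while the number called fell.

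**Figure D2:**
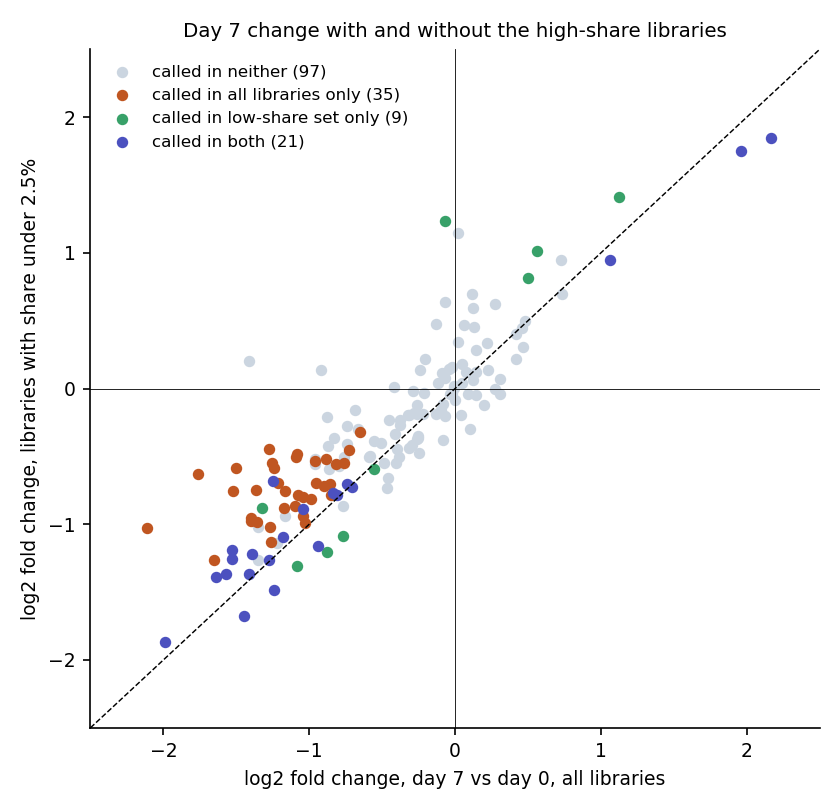
Log2 fold change from day 0 to day 7 of 162 lincRNAs in the fit with all libraries (horizontal axis) and within libraries with a mitochondrial share under 2.5% (vertical axis); each point is a lincRNA, coloured by the fits in which it was called, and the dashed line marks equal values. The points of lincRNAs called with all libraries only (35) lie mostly above the dashed line, and 21 were called in both fits.

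At day 14, 34 lincRNAs differed from day 0, 12 higher and 22 lower, where 23.1% of all genes were called (12.0% higher, 11.2% lower). The median log2 fold change was -0.20 against 0.02 for all genes. With the covariate 43 were called, including 33 of the 34, where 24% of all genes were called. Within the high-share libraries it was 25, including 21 of the 34, where 17.7% of all genes were called. At day 21, 39 lincRNAs differed, 19 higher and 20 lower, where 22.5% of all genes were called (12.4% higher, 10.1% lower), and the median was -0.10 against 0.02. All 39 were called with the covariate too, among 47, where 23.7% of all genes were called. The share of lincRNAs called was therefore near that of all genes on both later days. Of the 12 higher at day 14 and the 19 higher at day 21, 7 and 10 had a day 0 mean under 2 CPM, so they entered the selection through the libraries in which they were high, as did 2 of the 3 higher at day 7. Of those lower at days 7, 14 and 21, 17 of 53, 8 of 22 and 7 of 20 had a mean under 2 CPM on the day of the fall and entered through other libraries. The 3 comparisons use the same day 0 libraries.

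**Figure D3:**
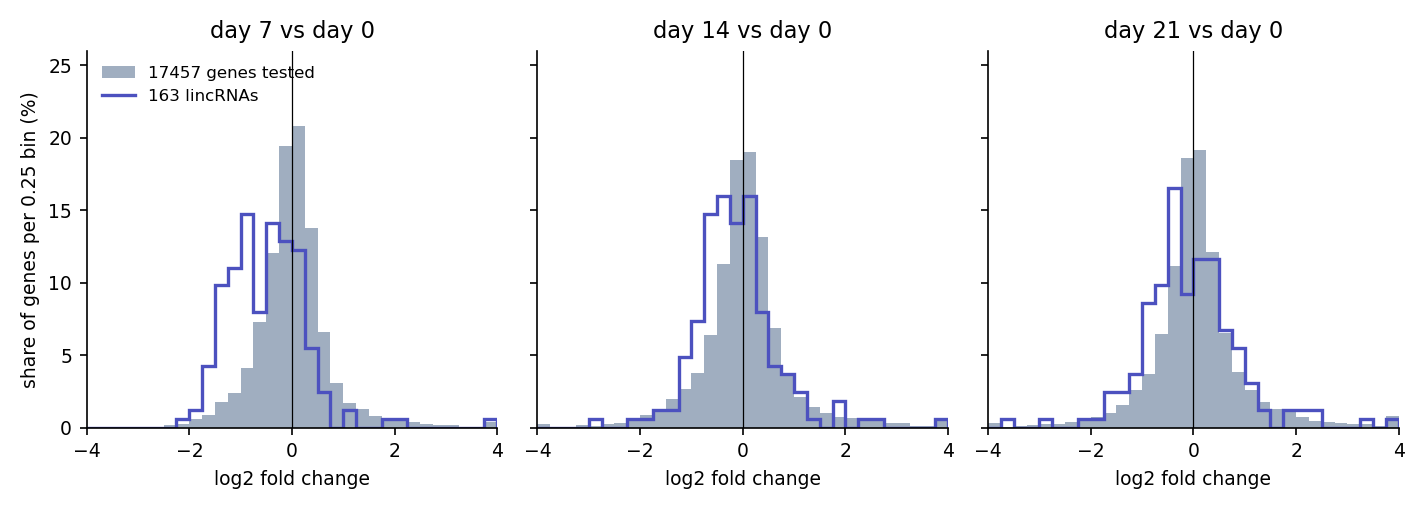
Distribution of log2 fold changes against day 0 at day 7, day 14 and day 21 (horizontal axis, in bins of 0.25; values beyond -4 or 4 are put in the end bins) as a share of genes (vertical axis, %), for the 163 lincRNAs (line) and all 17457 genes tested (filled). The line lies left of the filled area at day 7, with a median of -0.48, and less so at day 14 and day 21, with medians of -0.20 and -0.10.

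Taking the 3 comparisons with day 0 side by side, 87 of the 163 lincRNAs (53.4%) were called on at least 1 day and 76 on none, where 33.5% of all genes were called on at least 1 day. The most frequent course was a call lower at day 7 alone, in 38 lincRNAs (23.3%) and in 3.24% of all genes. Courses are named by calls against day 0, so a day without a call is not shown to differ from a day with one. Of the 53 lower at day 7, 14 were also called higher at day 14 against day 7. The course of a call at day 7 alone rests on the day 7 calls with all libraries, where 53 were lower against 11 with the covariate and 23 within the low-share libraries. On all 3 days 7 were lower (4.29%) and 3 were higher (1.84%), against 2.93% and 5.99% of all genes. Besides these, 7 were lower and 6 higher at days 14 and 21 only (4.29% and 3.68%, against 4.45% and 3.49% of all genes), 8 were higher and 5 lower at day 21 only, and 5 were lower at days 7 and 14 only. Of the others, 3 were lower and 2 higher at day 14 only, Mirt1 was lower at days 7 and 21, and 2 (Gm20045 and Gm21781, named after their values were seen) went in opposite directions on different days, being lower at day 7 and higher later.

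**Figure D4:**
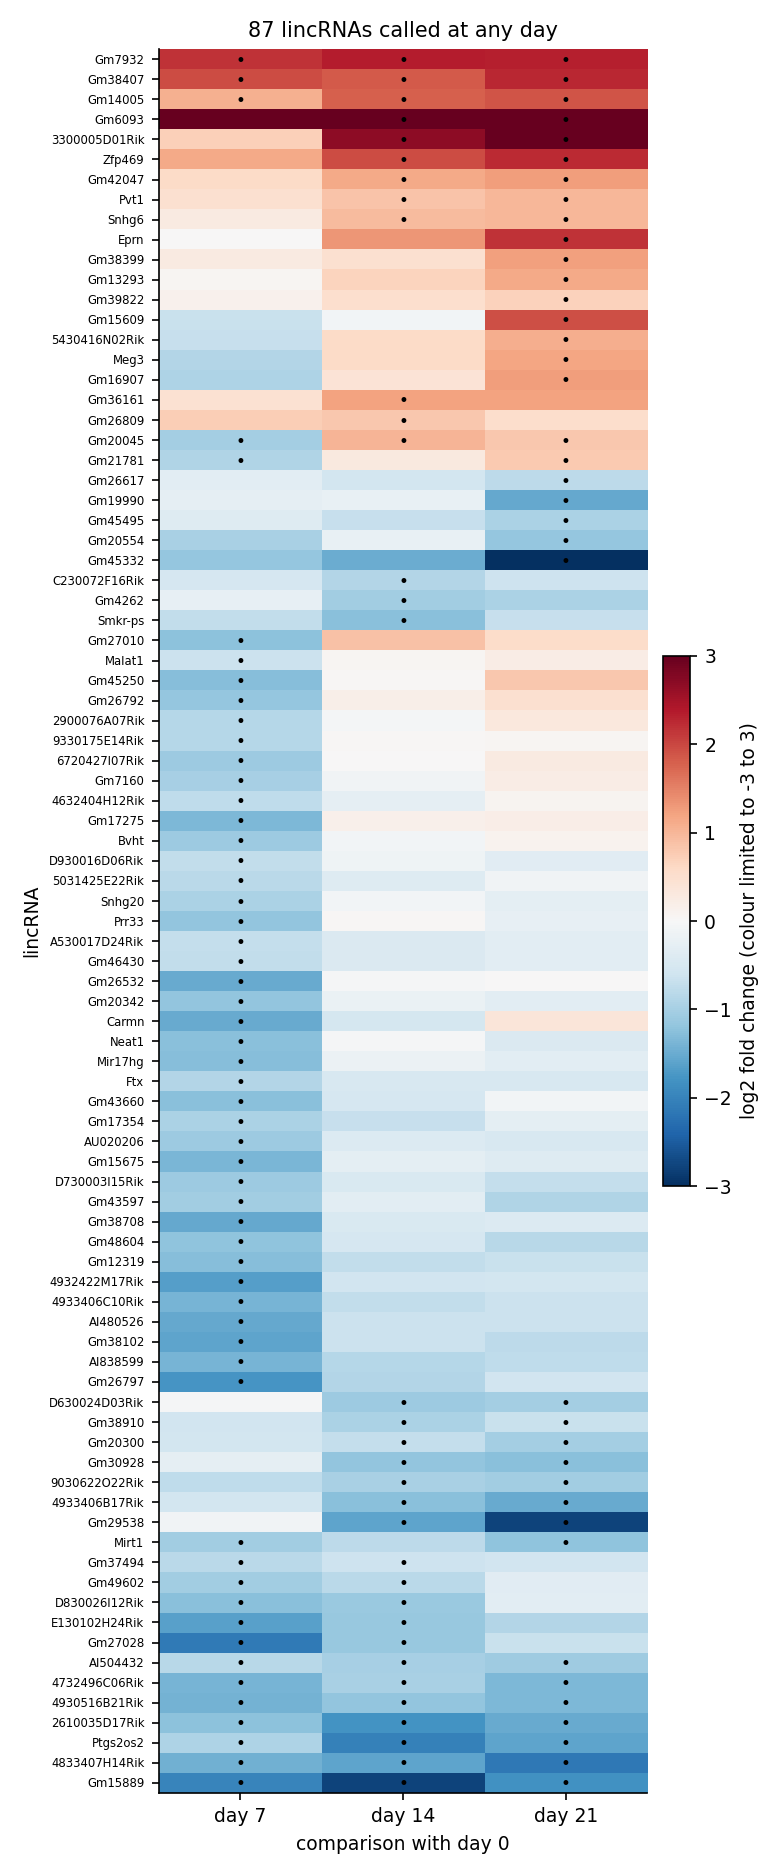
Log2 fold change against day 0 at day 7, day 14 and day 21 for the 87 lincRNAs called on at least 1 day (rows); red is higher, blue is lower, the colour is limited to -3 to 3, and a dot marks a called comparison. The block of 38 rows with a dot at day 7 alone is blue at day 7 and mostly pale later; the row of Gm6093, which had no count at day 0, is dark from day 7 although its day 7 value was not called.

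Among lincRNAs of nuclear architecture, Neat1, the scaffold of the paraspeckle (chr19:5824708-5845478 on GRCm38, minus strand), changed most in absolute level. It stood at 1218, 1184, 2611 and 2243 CPM in the day 0 libraries, 755, 785, 822 and 684 CPM at day 7, 921, 2182, 2070 and 1803 CPM at day 14, and 998, 1591 and 1460 CPM at day 21. All day 7 libraries lay below all others, and both high-share day 0 libraries lay above every day 14 library, the higher day 14 ones by a narrow margin. The log2 fold change at day 7 was -1.25 ± 0.28 (SE; edgeR adjusted p = 0.00587). It was -0.68 within the low-share libraries (edgeR adjusted p = 0.00342) and -0.61 with the covariate (edgeR adjusted p = 0.120). Values at day 14 (-0.04) and day 21 (-0.42) were not called.

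Malat1 (chr19:5795690-5802672, minus strand), the neighbour of Neat1, held 298, 319, 453 and 513 CPM at day 0 and 204, 275, 293 and 232 CPM at day 7. Its day 14 values were 270 CPM in the low-share library and 400, 515 and 449 CPM in the others, and day 21 had 455, 488 and 435 CPM. The day 7 libraries were below all day 0 libraries by a narrow margin. At day 7 the log2 fold change was -0.65 ± 0.19 (edgeR adjusted p = 0.0238), but -0.32 within the low-share libraries (edgeR adjusted p = 0.142) and -0.23 with the covariate (edgeR adjusted p = 0.373). The call was also lost without day 0 replicate 3 or 4 or day 7 replicate 1 or 4 (-0.62 to -0.53). Per kilobase of annotated exon, Neat1 had a mean level of 68.5 CPM, Malat1 53.5 CPM and the Norad RNA 52.2 CPM. These are counts from polyadenylated RNA. How much of each transcript such libraries hold was not measured, so the 3 values do not rank the transcripts by abundance.

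2900097C17Rik is the mouse Norad, which binds Pumilio proteins and guards chromosome number (chr2:156388065-156392979). It varied little: its means were 281 ± 31.2 CPM at day 0 (SD, n = 4), 268 ± 14.3 at day 7 (n = 4), 230 ± 21.6 at day 14 (n = 4) and 244 ± 10.1 at day 21 (n = 3), and no comparison with day 0 was called. The remaining abundant members differed from one another. 1700020I14Rik held 262 ± 12.6 CPM at day 0 and 198 ± 16.3 at day 7, a log2 fold change of -0.40 (edgeR adjusted p = 0.0281) that was under the fold threshold. AU020206 held 116, 127, 264 and 247 CPM at day 0 and 107, 68.7, 99.7 and 78.5 CPM at day 7, all below the lowest day 0 library. Its log2 fold change was -1.08 ± 0.24 (edgeR adjusted p = 0.00469) and -0.48 within the low-share libraries (edgeR adjusted p = 0.0731), and -0.57 with the covariate (edgeR adjusted p = 0.0955).

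The list of architecture and RNA-processing lincRNAs held 24 genes, of which 16 were tested, members or not. None rose and 6 fell at day 7, where 7.36% of all genes were lower. On the list 2 rose at day 14 and 1 at day 21, where 12.0% and 12.4% of all genes were higher. Beside Neat1 and Malat1 the day 7 fallers were Firre (log2 fold change -1.24), 1810026B05Rik (-1.03), Dleu2 (-1.05) and Ftx, the activator of Xist (-0.89, edgeR adjusted p = 0.0393; -0.39 with the covariate and -0.52 within the low-share libraries). The call of Ftx was lost without day 0 replicate 3 or 4 or any single day 7 library (-0.96 to -0.73). The riser on both later days was Pvt1. The proteins that build paraspeckles with Neat1 were a list of 20, all tested. Of these 1 rose and 3 fell at day 7, where 16.1% of all genes were called, and none rose and 1 fell on each later day, where 23.1% and 22.5% were called. Pspc1 had a log2 fold change of 0.79 at day 7 (edgeR adjusted p = 0.000986), and Hnrnph3, a splicing factor, had values of -0.70, -0.73 and -1.0 on the 3 days.

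**Figure D5:**
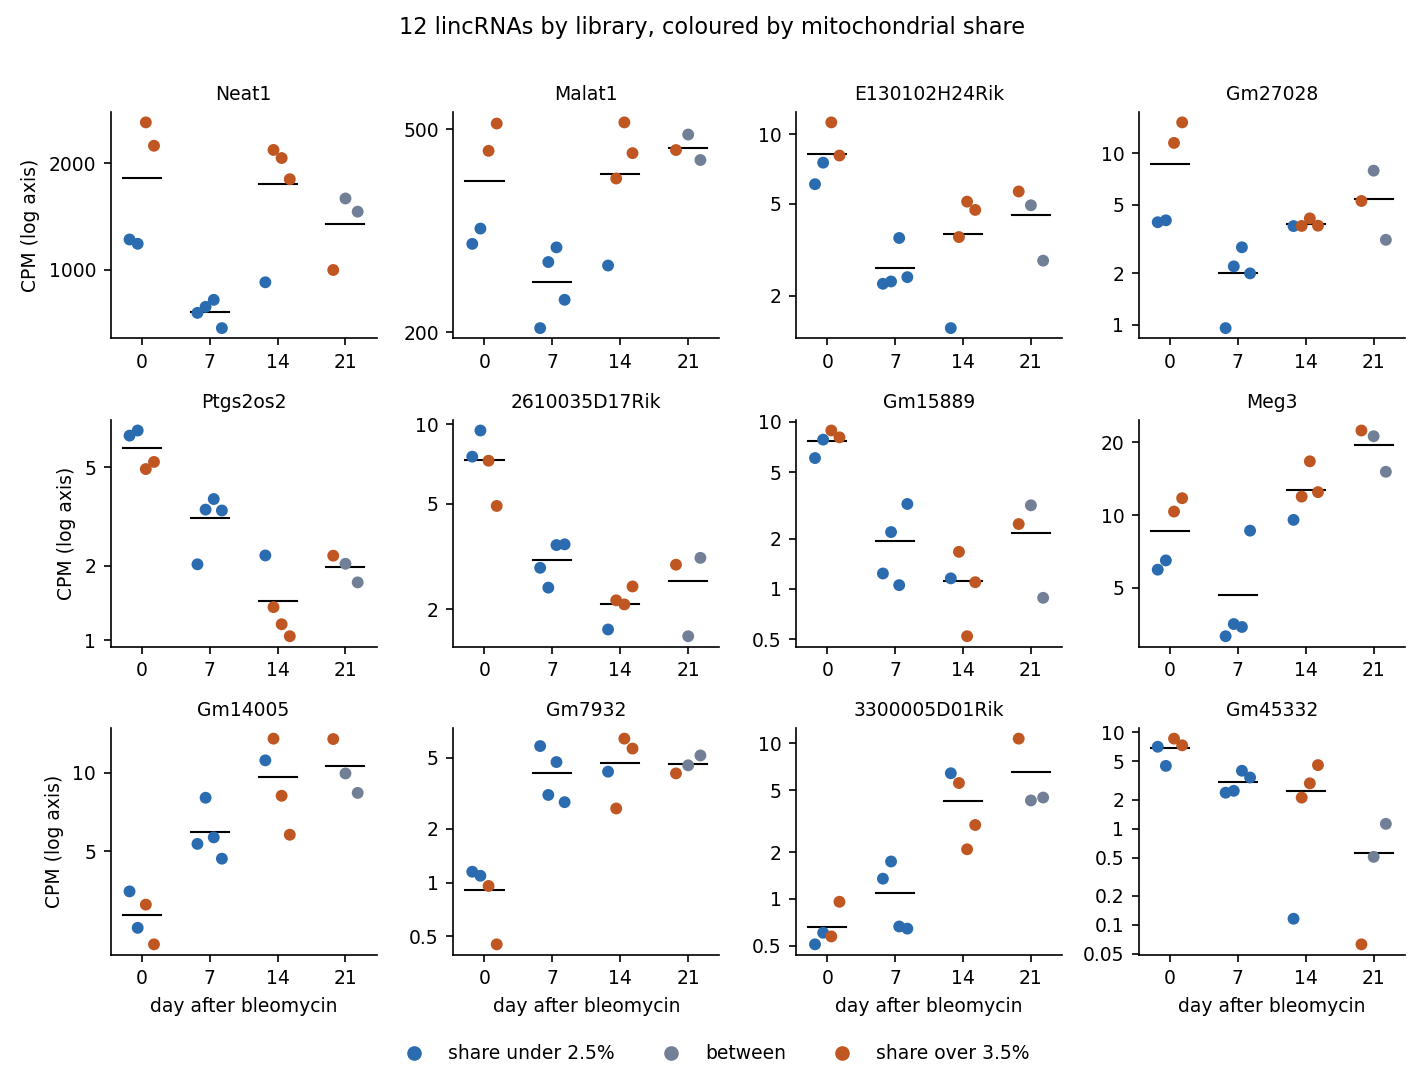
Level of 12 lincRNAs in each library (vertical axis, CPM, log axis with its own range in each panel) by day after bleomycin; points are libraries coloured by mitochondrial share and black lines are group means. Neat1 lies at 684 to 822 CPM in the day 7 libraries and at 1184 CPM or more at day 0; Ptgs2os2, 2610035D17Rik and Gm15889 lie below day 0 on every later day, and Gm14005 and Gm7932 above it.

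Of the 163 lincRNAs, 11 span an annotated microRNA gene on their own strand, and 7 of these were lower at day 7, beside 53 of 163 over the whole set and 7.36% of all genes; 9 of the 11 were called on some day, beside 53.4% of the 163 and 33.5% of all genes. MicroRNAs are cut from such host transcripts in the nucleus and then lose 1 arm of the hairpin; bases 2 to 8 of the remaining arm, the seed, pair with target messenger RNAs. Mature microRNAs were not measured here, so the sequences below (RefSeq, GRCm38.p6) show which microRNAs the hosts carry and not their levels. Capitals mark the seed, and 5′ ends are on the left. The host 6720427I07Rik on chromosome 13 carries 3 members of the let-7 family, which share 1 seed:
mmu-let-7a-5p: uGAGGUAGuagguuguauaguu
mmu-let-7f-5p: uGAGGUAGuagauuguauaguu
mmu-let-7d-5p: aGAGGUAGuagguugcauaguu
Mir17hg on chromosome 14 carries the miR-17-92 cluster, known for driving proliferation, in which miR-17 and miR-20a share a seed, miR-18a has a closely similar one, and both miR-19 forms share another:
mmu-miR-17-5p: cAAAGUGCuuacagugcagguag
mmu-miR-20a-5p: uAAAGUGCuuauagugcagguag
mmu-miR-18a-5p: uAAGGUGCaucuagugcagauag
mmu-miR-19a-3p: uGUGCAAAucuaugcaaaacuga
mmu-miR-19b-3p: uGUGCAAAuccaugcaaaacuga
mmu-miR-92a-3p: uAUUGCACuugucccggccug
Gm27028 on chromosome 1 and E130102H24Rik on chromosome 4, which were lower at day 7 and also at day 14, carry 1 microRNA gene each:
mmu-miR-30c-5p: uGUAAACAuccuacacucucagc
mmu-miR-101a-3p: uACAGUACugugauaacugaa

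E130102H24Rik, the miR-101a host (chr4:101346531-101356735, minus strand), held 6.07, 7.52, 11.2 and 8.07 CPM at day 0 and 2.25, 2.30, 3.55 and 2.40 CPM at day 7. At day 14 it held 1.45, 3.58, 5.10 and 4.70 CPM, and at day 21 5.64, 4.92 and 2.83 CPM, so that no later day overlapped with day 0. Its log2 fold change was -1.64 ± 0.33 at day 7 (edgeR adjusted p = 0.00308), -1.39 within the low-share libraries (edgeR adjusted p = 0.00737) and -1.0 with the covariate (edgeR adjusted p = 0.0380). At day 14 it was -1.14 (edgeR adjusted p = 0.0148) and -1.11 within the high-share libraries (edgeR adjusted p = 0.0206). This host was called in each of these fits, but not at day 21 (-0.88, edgeR adjusted p = 0.0739).

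Gm27028, an annotated transcript of 399 exon bases around the miR-30c-2 gene (chr1:23291537-23291935), varied more with the mitochondrial share at day 0. Day 0 had 3.96 and 4.06 CPM in the low-share libraries and 11.5 and 15.1 CPM in the others, and day 7 had 0.956, 2.19, 2.83 and 1.99 CPM. All day 7 libraries lay below day 0, but the day 0 libraries differed among themselves about as much. At day 7 its log2 fold change was -2.11 ± 0.44 (edgeR adjusted p = 0.00333), the largest fall of the set on that day, against -1.03 within the low-share libraries (edgeR adjusted p = 0.0837) and -1.34 with the covariate (edgeR adjusted p = 0.0863). At day 14 it held 4.17 CPM in replicate 3 and 3.76 to 3.78 CPM in the others, low-share replicate 1 included, near the low-share day 0 libraries. Its day 14 fall (-1.14, edgeR adjusted p = 0.0463) was lost without day 0 replicate 3 or 4 or any single day 14 library, with values of -1.17 to -0.76. The value within the high-share libraries was -1.76 (edgeR adjusted p = 0.00196), set against the day 0 libraries at 11.5 and 15.1 CPM.

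The let-7 host 6720427I07Rik held 3.51, 5.76, 7.28 and 5.70 CPM at day 0, 2.98, 2.02, 2.94 and 2.40 CPM at day 7, 3.82, 7.85, 5.62 and 4.76 CPM at day 14, and 9.53, 5.88 and 4.66 CPM at day 21. It was thus low at day 7 alone, with a log2 fold change of -1.10 ± 0.29 (edgeR adjusted p = 0.0133) against -0.86 within the low-share libraries (edgeR adjusted p = 0.0651) and -0.64 with the covariate (edgeR adjusted p = 0.164). Mir17hg held 3.39, 3.94, 9.89 and 9.37 CPM at day 0 and 2.93, 3.15, 2.83 and 1.99 CPM at day 7. Its log2 fold change of -1.28 (edgeR adjusted p = 0.0104) became -0.45 within the low-share libraries (edgeR adjusted p = 0.263) and -0.65 with the covariate (edgeR adjusted p = 0.205). All 12 cell division markers rose at day 7, and their summed level was 117 to 151 CPM at day 0 and 351 to 427 CPM at day 7. 2900076A07Rik, the miR-1839 host, and Snhg20, the miR-6516 host, also fell at day 7 (-0.86 and -0.96), and neither call held with the covariate or within the low-share libraries. That of Snhg20 was also lost without day 0 replicate 3 (-0.69) or day 7 replicate 2 (-0.79).

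The list of microRNA host transcripts held 24 genes, of which 12 were tested. At day 7, 1 rose and 7 fell; at day 14, 3 rose and 2 fell; at day 21, 4 rose and 3 fell, where 16.1%, 23.1% and 22.5% of all genes were called on the 3 days. The genes that rose late lie outside the 163: Mir155hg, host of a microRNA of activated macrophages and lymphocytes, had log2 fold changes of 2.46 at day 14 and 3.23 at day 21, and Dnm3os, host of fibrosis-linked miR-199a and miR-214, had 2.82 and 3.39. A330023F24Rik, host of miR-29b-2 and miR-29c, whose targets include collagen messenger RNAs, fell on all 3 days (-1.72, -1.34 and -1.02). Mirt1 and Mirt2 on this list are named for myocardial infarction and are not among the 11 that span a microRNA gene. Mirt1 held 8.37, 9.10, 13.9 and 7.00 CPM at day 0 and 4.39, 4.07 and 4.01 CPM at day 21, a log2 fold change of -1.20 (edgeR adjusted p = 0.0202). It fell at day 7 as well (-1.05, edgeR adjusted p = 0.0294), where the value was -0.64 with the covariate (edgeR adjusted p = 0.272) and -0.94 within the low-share libraries (edgeR adjusted p = 0.0703). The day 21 call of Mirt1 was lost without day 0 replicate 3 (-1.01) or day 21 replicate 3 (-1.22), and its day 7 call without day 0 replicate 3 or day 7 replicate 1, 3 or 4 (-0.99 to -0.84).

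Small nucleolar RNA hosts release from their introns guide RNAs that direct chemical modification of ribosomal RNA. Of 22 on the list 16 were tested; none rose and 4 fell at day 7, 3 rose and 1 fell at day 14, and 1 rose and 1 fell at day 21, beside 16.1%, 23.1% and 22.5% of all genes called. Snhg6, host of Snord87 (chr1:9941959-9944118, minus strand), held 5.43, 5.82, 10.1 and 7.90 CPM at day 0, 8.61, 10.8, 9.27 and 6.57 CPM at day 7, 16, 18, 11 and 10.6 CPM at day 14 and 17.6, 12.1 and 14.0 CPM at day 21. All later libraries from day 14 on lay above all day 0 libraries. The log2 fold changes were 0.95 ± 0.24 at day 14 (edgeR adjusted p = 0.00671) and 0.99 ± 0.25 at day 21 (edgeR adjusted p = 0.00817), and 0.57 within the high-share libraries at day 14 (edgeR adjusted p = 0.237). Without day 21 replicate 1 the day 21 value of Snhg6 was 0.81 and the call was lost. An exon of the protein-coding gene Mcmdc2 overlaps Snhg6 on the other strand, and reads of the 2 cannot be told apart without strand. Snhg18, Snhg12 and Epb41l4aos were not called on any day; Snhg18, for example, held 17.1 ± 2.91 CPM at day 0 and 16.5 ± 1.59 at day 7. Snhg11, which is not a member, fell on all 3 days (-2.03, -1.50 and -2.02).

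The imprinted lincRNA Meg3, made from the maternal copy of chromosome 12 (chr12:109541001-109571726), had its highest levels at day 21. It held 5.94, 6.49, 10.3 and 11.7 CPM at day 0, 3.15, 3.54, 3.44 and 8.62 CPM at day 7, 9.55, 11.9, 16.7 and 12.4 CPM at day 14 and 22.4, 21.2 and 15.1 CPM at day 21. All day 21 libraries were above all day 0 libraries. The log2 fold change was 1.18 ± 0.33 at day 21 (edgeR adjusted p = 0.0136; 1.16 with the covariate), and it was 1.44 between day 7 and day 14 (edgeR adjusted p = 0.0186). The day 7 value against day 0 was -0.87 (edgeR adjusted p = 0.0563) and was not called. Without day 21 replicate 1 the day 21 value was 1.05 and the call was lost. Of 10 imprinted lincRNAs listed 7 were tested; 1 rose and 2 fell at day 7, 2 rose and 1 fell at day 14, and 3 rose and 1 fell at day 21, beside 16.1%, 23.1% and 22.5% of all genes called. Rian, which lies in the same cluster as Meg3, rose at days 14 and 21 (0.72 and 0.96), H19 rose on all days (1.59, 1.73 and 1.58), and Peg13 fell on all days (-0.64, -1.04 and -0.94).

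Among immune lincRNAs, Ptgs2os2 is the lincRNA-Cox2 of activated macrophages, named for its neighbour, the prostaglandin synthase gene Ptgs2 (chr1:150159043-150164948, minus strand). It held 6.71, 7.04, 4.92 and 5.25 CPM at day 0, 2.03, 3.37, 3.72 and 3.34 CPM at day 7, 2.20, 1.36, 1.16 and 1.04 CPM at day 14, and 2.20, 2.04 and 1.71 CPM at day 21. Every library after bleomycin lay below every day 0 library, and here the low-share day 0 libraries were the higher ones. The log2 fold changes were -0.94 ± 0.26 at day 7 (edgeR adjusted p = 0.0172; -1.16 within the low-share libraries), -2.03 ± 0.28 at day 14 (edgeR adjusted p = 6.75e-05) and -1.59 ± 0.30 at day 21 (edgeR adjusted p = 0.00101). Leaving out day 7 replicate 1 gave -0.80 and ended the day 7 call. Ptgs2 itself, whose start lies 64917 bases away, had log2 fold changes of -0.08, -0.45 and -0.58 and was not called. The summed level of 14 macrophage and monocyte markers was 1221 to 1502 CPM at day 0, 1840 to 2789 at day 7, 3408 to 7697 at day 14 and 3410 to 8132 at day 21, opposite in direction to Ptgs2os2. In whole lung, fewer cells of a type and less RNA per cell cannot be told apart. Of 16 listed immune lincRNAs 9 were tested; 2 rose and 4 fell at day 7, 3 rose and 2 fell at day 14, and 3 rose and 2 fell at day 21, beside 16.1%, 23.1% and 22.5% of all genes called.

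The lincRNAs that fell on all 3 days were 7 in number: Ptgs2os2, 2610035D17Rik, Gm15889, AI504432, 4930516B21Rik, 4732496C06Rik and 4833407H14Rik. 2610035D17Rik (chr11:113043895-113201838, minus strand) held 7.54, 9.46, 7.28 and 4.91 CPM at day 0, 2.87, 2.41, 3.5 and 3.52 CPM at day 7, 1.68, 2.16, 2.09 and 2.44 CPM at day 14, and 2.95, 1.58 and 3.13 CPM at day 21. No later library reached the lowest day 0 library. Its log2 fold changes were -1.24 ± 0.25, -1.79 ± 0.26 and -1.52 ± 0.28 (edgeR adjusted p = 0.00303, 0.000123 and 0.00100). Within the low-share libraries at day 7 the value was -1.49, and within the high-share libraries at day 14 it was -1.44, both called.

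Gm15889 (chr8:94377872-94380317) showed the deepest fall at day 14. It held 6.07, 7.82, 8.87 and 8.07 CPM at day 0 and 1.16, 1.67, 0.522 and 1.10 CPM at day 14, with 1.24, 2.19, 1.05 and 3.23 CPM at day 7 and 2.45, 3.17 and 0.885 CPM at day 21. The groups did not overlap with day 0 on any day. The log2 fold changes were -1.99 ± 0.41, -2.77 ± 0.43 and -1.83 ± 0.45 (edgeR adjusted p = 0.00333, 0.000228 and 0.00692). Its nearest gene, Herpud1, a stress gene of the endoplasmic reticulum that starts 8566 bases away on the same strand, fell on the same days by less (-0.67, -0.94 and -0.85).

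AI504432 (chr3:107039504-107054347) held 30.3, 31.2, 35.4 and 34.7 CPM at day 0, 18.3 ± 1.56 at day 7 (SD, n = 4), 16.4 ± 4.87 at day 14 (n = 4) and 15.8 ± 5.92 at day 21 (n = 3), with log2 fold changes of -0.84, -1.0 and -1.06. Its day 7 value was -0.77 within the low-share libraries (edgeR adjusted p = 0.00330), and with the covariate it was -0.79 and the call was lost (edgeR adjusted p = 0.0596). Its neighbour Kcna3, a potassium channel of lymphocytes that starts 3335 bases away, was called at day 14 only (-0.74, -1.24 and -0.28). 4930516B21Rik, which starts 113 bases from the nuclease gene Exog in the opposite direction, had -1.41, -1.18 and -1.34, while Exog had 0.23, 0.48 and 0.05 and was not called. 4833407H14Rik had -1.45, -1.58 and -2.14, and its exons overlap Mirt1 on the other strand, so their falls are not independent readings. 4732496C06Rik had -1.40, -0.96 and -1.35, and its day 7 call was lost both with the covariate and within the low-share libraries (-0.93 and -0.97). The day 14 call of 4732496C06Rik was lost without day 0 replicate 3 or 4 or day 14 replicate 1 or 4 (-0.92 to -0.80). The summed level of the alveolar and airway epithelial markers was 55029 to 70443 CPM at day 0, 28749 to 37714 at day 7, 14358 to 28638 at day 14 and 10560 to 15160 at day 21. Of the 11 tested, 2 fell and 1 rose at day 7, 6 fell and 1 rose at day 14, and 7 fell at day 21. Of 11 lymphocyte markers none was called at day 7, 6 fell at day 14, and 5 fell and 1 rose at day 21, and their sum ran from 90.7 to 166 CPM in the day 0 libraries, 62.5 to 328 CPM in those of day 7, 35.5 to 110 CPM in those of day 14 and 90.8 to 435 CPM in those of day 21. Of 5 adipocyte markers 1, 5 and 4 fell on the 3 days, and 4 were at 0 in some library. The sum of the adipocyte markers ran from 19.6 to 69.1 CPM in the day 0 libraries, 9.49 to 135 CPM in those of day 7, 1.3 to 3.4 CPM in those of day 14 and 0.735 to 3.07 CPM in those of day 21. Of 6 cardiac muscle markers tested 1 fell, at day 14. Their sum was 23.4 to 285 CPM at day 0, 27.5 to 637 at day 7, 26.2 to 42.0 at day 14 and 18.7 to 769 at day 21. The part of these cell types in the falls was not tested.

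RefSeq holds a promoter window, from 250 bases before to 50 bases after the start, for 6 of the 10 lincRNAs that moved the same way on all 3 days. The calls of 5 of these 6 held with the covariate on every day (all but Gm38407), and 3 of the 5 are printed as examples, from 2 lincRNAs that fell and 1 that rose. The motifs on both strands were TGANTCA (AP-1), TATAAA and CCAAT. They occur in 7.81%, 13.6% and 37.4% of 32817 RefSeq promoter windows of the same length, and capitals mark them, also where they lie on the other strand. The windows are at chr1:150164899-150165198 (minus strand, Ptgs2os2), chr11:113201789-113202088 (minus strand, 2610035D17Rik) and chr6:48860079-48860378 (plus strand, Gm7932), on GRCm38.p6:
Ptgs2os2: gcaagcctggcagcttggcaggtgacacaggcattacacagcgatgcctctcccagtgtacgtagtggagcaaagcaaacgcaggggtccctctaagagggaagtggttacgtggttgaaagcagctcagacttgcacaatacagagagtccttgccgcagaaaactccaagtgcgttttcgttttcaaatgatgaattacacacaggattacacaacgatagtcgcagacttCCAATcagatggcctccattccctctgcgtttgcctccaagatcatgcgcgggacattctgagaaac
2610035D17Rik: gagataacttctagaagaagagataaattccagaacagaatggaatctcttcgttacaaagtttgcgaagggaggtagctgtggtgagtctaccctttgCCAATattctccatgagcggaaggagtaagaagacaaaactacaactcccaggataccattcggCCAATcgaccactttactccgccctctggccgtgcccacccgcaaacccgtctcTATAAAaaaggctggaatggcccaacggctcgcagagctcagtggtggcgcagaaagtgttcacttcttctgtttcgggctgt
Gm7932: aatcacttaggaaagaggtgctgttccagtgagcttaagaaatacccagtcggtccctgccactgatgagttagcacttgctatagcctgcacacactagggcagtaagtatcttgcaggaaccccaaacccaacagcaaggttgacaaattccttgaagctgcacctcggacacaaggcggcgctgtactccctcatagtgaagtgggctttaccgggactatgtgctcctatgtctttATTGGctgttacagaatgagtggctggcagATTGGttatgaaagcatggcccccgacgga
CCAAT was matched 1 time in the first window and 2 times in each of the others, TATAAA 1 time in that of 2610035D17Rik, and TGANTCA in none of these 3. Of the windows not printed, that of 4833407H14Rik holds CCAAT 1 time, that of Gm38407 holds TGANTCA 1 time and no CCAAT, and that of Gm15889 holds none of the motifs. The printed windows hold 12, 13 and 7 CG pairs, where the median window holds 7. These are matches of letters and not measured binding.

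Gm14005, Gm7932 and Gm38407 rose on all 3 days. Gm14005 is Morrbid, a lincRNA of short-lived myeloid cells known to hold down the death gene Bcl2l11 (chr2:128178319-128502765, minus strand). It held 3.51, 2.55, 3.13 and 2.20 CPM at day 0, 5.34, 8.03, 5.66 and 4.69 CPM at day 7, 11.2, 13.5, 8.17 and 5.79 CPM at day 14, and 13.5, 9.95 and 8.38 CPM at day 21. All later libraries were above all day 0 libraries. The log2 fold changes were 1.06 ± 0.28 (edgeR adjusted p = 0.0128), 1.78 ± 0.28 (edgeR adjusted p = 0.000226) and 1.89 ± 0.29 (edgeR adjusted p = 0.000249); with the covariate the day 7 value was 0.99 (edgeR adjusted p = 0.0830). Of the 14 macrophage and monocyte markers 7, 9 and 7 rose on the 3 days and 1 fell at day 21, and their part in its rise was not tested. Gm14005 shares exon sequence with other lincRNAs, Gm14012 on its own strand and Gm14009 on the other.

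Gm7932 (chr6:48860329-48866083) held 1.15, 1.09, 0.957 and 0.452 CPM at day 0, 5.79, 3.09, 4.72 and 2.81 CPM at day 7, 4.17, 2.60, 6.38 and 5.61 CPM at day 14, and 4.08, 4.52 and 5.14 CPM at day 21. The rise was complete at day 7 and level afterwards, with log2 fold changes of 2.17 ± 0.35, 2.36 ± 0.35 and 2.32 ± 0.36 (edgeR adjusted p = 0.000589, 0.000137 and 0.000270), and it was called in every fit run. The amine oxidase gene Aoc1, 12567 bases away on the same strand, rose on the same days (1.84, 1.52 and 2.44). RefSeq classes Gm7932 as protein-coding, as it does 9 of the 163 in all. Gm38407 (chr12:10446388-10531303) held 1.02, 1.40, 1.40 and 0.452 CPM at day 0 and 3.94, 7.58, 2.89 and 2.23 CPM at day 7, with day 14 at 1.91 to 5.79 CPM and day 21 at 3.66 to 6.71 CPM. Its log2 fold changes were 1.96, 1.85 and 2.26 (edgeR adjusted p = 0.00727, 0.00680 and 0.00276). The day 7 call was lost with the covariate (edgeR adjusted p = 0.0732) and the day 14 call within the high-share libraries (edgeR adjusted p = 0.0790).

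Called higher at days 14 and 21, and not at day 7, were 6 lincRNAs. Their uncalled day 7 log2 fold changes were positive too, from 0.27 for Snhg6 to 1.13 for Zfp469 and 5.22 for Gm6093. Gm6093 (chr13:33562486-33569317, minus strand) had no count in any day 0 library and 0.0563, 0.786, 0.111 and 0.117 CPM at day 7. It reached 8.10, 5.56, 0.580 and 0.549 CPM at day 14 and 27.3, 4.13 and 3.25 CPM at day 21. Against a floor of 3 counts per day 0 library, which is 0.184 CPM, the means were at least 20.1-fold higher at day 14 and at least 63.0-fold higher at day 21; without the highest library of each day the bounds were 12.1 and 20.1. The libraries of each later day differed widely, and both days were called (edgeR adjusted p = 0.00432 and 0.00135).

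3300005D01Rik (chr17:5798657-5803240) held 0.511, 0.607, 0.574 and 0.960 CPM at day 0, 1.35, 1.74, 0.666 and 0.645 CPM at day 7, 6.42, 5.56, 2.09 and 2.99 CPM at day 14 and 10.7, 4.30 and 4.49 CPM at day 21. All libraries of days 14 and 21 were above all earlier ones. Its log2 fold changes were 2.69 ± 0.47 at day 14 (edgeR adjusted p = 0.000522) and 3.26 ± 0.49 at day 21 (edgeR adjusted p = 0.000192), and those held in every fit run. Snx9, 42672 bases away, was called at day 21 only (0.77). Zfp469 (chr8:122269569-122272650), a lincRNA in GENCODE M21 but protein-coding in RefSeq, held 1.09, 1.70, 1.91 and 2.20 CPM at day 0, 14.4, 5.93, 2.90 and 3.35 CPM at day 14, and 14.0, 4.92 and 5.61 CPM at day 21. The log2 fold changes were 1.97 (edgeR adjusted p = 0.00565) and 2.23 (edgeR adjusted p = 0.00387), but 0.99 within the high-share libraries at day 14, without the library at 14.4 CPM (edgeR adjusted p = 0.135).

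Pvt1, which lies 52595 bases from the start of the growth regulator Myc, held 0.894, 1.70, 1.6 and 1.19 CPM at day 0, 2.49, 1.98, 2.72 and 2.44 CPM at day 14 and 2.95, 2.21 and 2.89 CPM at day 21. The later libraries lay above day 0 without overlap. Its log2 fold changes were 0.85 at day 14 (edgeR adjusted p = 0.0273) and 0.99 at day 21 (edgeR adjusted p = 0.0190). Each call was lost without day 0 replicate 1 or 4 or without replicate 1 or 3 of its own day, with values of 0.68 to 0.81 at day 14 and 0.81 to 0.90 at day 21. Both calls were also lost in the fit of the 2 groups alone and without the filter on low counts. The day 14 call was lost within the high-share libraries too (0.78). Myc had 1.38, 1.58 and 2.1 on the 3 days, all called. Gm42047, with 45.6 ± 15.1 CPM at day 0, had 71.8, 66.4, 185 and 75.5 CPM at day 14 and 154, 80.7 and 93.4 CPM at day 21. Its log2 fold changes were 1.14 and 1.26 (edgeR adjusted p = 0.0183 and 0.0160), and the day 14 call was lost without replicate 3, the library at 185 CPM (0.67), without day 0 replicate 1 or 2 (both 0.98) and within the high-share libraries (0.89). Without day 0 replicate 1 or 2 or day 21 replicate 1 the day 21 call was lost too (1.10, 1.09 and 0.91). Snhg6, given above, was the last of the 6.

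Called at day 21 and on no other day were 8 rises and 5 falls. No lincRNA was called between day 14 and day 21, so these are not shown to differ from day 14. Besides Meg3, Gm15609 held 1.09, 1.27, 1.34 and 2.48 CPM at day 0 and 6.33, 8.25 and 3.19 CPM at day 21, while day 14 had 2.08, 0.803, 1.22 and 1.71 CPM. The log2 fold change at day 21 was 1.93 ± 0.45 (edgeR adjusted p = 0.00440). Its exon overlaps one of the synaptic scaffold gene Shank3 on the other strand, and Shank3 had -0.02 at day 21. Eprn rose from 1.12 ± 0.731 CPM (SD, n = 4) to 7.71, 3.28 and 4.25 CPM, a log2 fold change of 2.17 (edgeR adjusted p = 0.0103), which was 1.71 and lost without day 21 replicate 1. The summed level of 12 fibroblast and matrix markers was 2037 to 2864 CPM at day 0, 7589 to 9241 at day 7, 7061 to 23412 at day 14 and 9238 to 17408 at day 21, with no marker at 0 in any library; 7, 9 and 10 of them rose on the 3 days, and their part in these rises was not tested. Of 21 listed lincRNAs of lung and mesenchyme 10 were tested; 1 rose and 2 fell at day 7, 2 rose at day 14, and 3 (Dnm3os, Meg3 and H19) rose at day 21, beside 16.1%, 23.1% and 22.5% of all genes called.

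The deepest fall of the set was that of Gm45332 at day 21 (chr8:92152096-92158266, minus strand). It held 7.09, 4.49, 8.62 and 7.34 CPM at day 0, 2.36, 2.47, 4.0 and 3.4 CPM at day 7, 0.116, 2.1, 2.96 and 4.57 CPM at day 14, and 0.0627, 0.509 and 1.12 CPM at day 21. Days 7 and 21 lay wholly below day 0. The log2 fold change at day 21 was -3.58 ± 0.78 (edgeR adjusted p = 0.00303), whereas day 7 (-1.16) and day 14 (-1.49) were not called. Gm19990 held 10.1 ± 0.806 CPM at day 0 and 2.70, 3.34 and 4.43 CPM at day 21, a log2 fold change of -1.53 ± 0.37 (edgeR adjusted p = 0.00630). At day 14 it held 2.49 CPM in replicate 1 and 11.2, 8.75 and 11.8 CPM in the others.

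Gm29538 (chr1:88443969-88462608, minus strand) was low at the later days. It held 2.81, 4.25, 3.38 and 3.33 CPM at day 0, 3.54, 2.53, 2.72 and 4.05 CPM at day 7, 1.5, 0.865, 0.754 and 1.40 CPM at day 14 and 0.690, 0.339 and 0.472 CPM at day 21. Days 0 and 7 overlapped, and days 14 and 21 lay below both. The log2 fold changes were -0.09, -1.58 (edgeR adjusted p = 0.000851) and -2.78 (edgeR adjusted p = 5.63e-05), and the difference between days 7 and 14 was called as well (-1.49, edgeR adjusted p = 0.0126). 4933406B17Rik (-1.24 and -1.52 at days 14 and 21) and Gm30928 (-1.18 and -1.26) were likewise called at days 14 and 21 only; within the high-share libraries the day 14 value of Gm30928 was -0.92 and the call was lost. Smkr-ps was called lower at day 14 only (-1.26, edgeR adjusted p = 0.0292), with uncalled values of -0.74 at day 7 and -0.69 at day 21. Its day 14 call was lost without day 0 replicate 3 or 4 or day 14 replicate 2 or 3 (-1.27 to -1.02).

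A group of 3 lincRNAs lies beside the histone methyltransferase gene Setd1b on chromosome 5, 2 of them within the span of the first. AI480526 (chr5:123133723-123141666, minus strand) held 14.8, 16.5, 26.9 and 19.1 CPM at day 0, 7.26, 5.73, 7.88 and 5.75 CPM at day 7, 6.77, 17, 12.2 and 12.8 CPM at day 14 and 16.7, 12 and 8.68 CPM at day 21. All day 7 libraries were below all day 0 libraries. Its log2 fold change was -1.53 ± 0.27 at day 7 (edgeR adjusted p = 0.00118), -1.25 within the low-share libraries (edgeR adjusted p = 0.00282) and -0.98 with the covariate (edgeR adjusted p = 0.0102). Gm38102 and 4932422M17Rik, which share exon sequence with it on the plus strand, fell by 1.57 and 1.65 on the log2 scale; with the covariate Gm38102 was called and 4932422M17Rik was not (edgeR adjusted p = 0.0511), nor was 4932422M17Rik within the low-share libraries (-1.26, edgeR adjusted p = 0.0576). The kit did not mark strand, so the 3 are not independent readings. Setd1b had -0.37 at day 7 and was not called, and Rhof, 1247 bases from Gm38102, rose on all days (0.99, 1.34 and 1.31).

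The other large falls at day 7 were Gm38708, which starts 3210 bases from the blood and endothelial transcription factor gene Gata2 and runs the other way, and Gm26797. Gm38708 held 5.69, 7.10, 9.51 and 10.8 CPM at day 0 and 2.25, 2.75, 2.28 and 4.10 CPM at day 7, a log2 fold change of -1.53 (edgeR adjusted p = 0.0116; -1.19 within the low-share libraries, edgeR adjusted p = 0.0229). With the covariate it was -0.94 and the call was lost (edgeR adjusted p = 0.162). Gata2 was called lower too, just past both thresholds (-0.59, edgeR adjusted p = 0.0485). The summed level of 12 endothelial markers was 3854 to 4352 CPM at day 0 and 2623 to 3500 at day 7, where 3 of them fell. Gm26797 held 1.85, 2.00, 6.45 and 7.00 CPM at day 0 and 0.675, 1.12, 1.39 and 1.88 CPM at day 7. Its day 7 libraries overlapped with the low-share day 0 libraries, and the log2 fold change of -1.76 (edgeR adjusted p = 0.00929) became -0.63 within the low-share libraries (edgeR adjusted p = 0.307) and -0.74 with the covariate, not called in either. Carmn, a lincRNA of smooth muscle and heart, held 1.66, 2.12, 2.04 and 7.28 CPM at day 0 and 0.506, 1.35, 1.22 and 1.47 CPM at day 7; its call (-1.52, edgeR adjusted p = 0.0465) was lost without the day 0 library at 7.28 CPM (-0.79) and without any single day 7 library (-1.68 to -1.30). It was -0.76 within the low-share libraries and -0.70 with the covariate, not called in either (edgeR adjusted p = 0.241 and 0.468). A fit with replicate number as a block did not call Carmn at day 7 either. Gm26917 and Gm42047 were called higher at day 7 within the low-share libraries and with the covariate, but not with all libraries: Gm26917 had 0.50 with all libraries (edgeR adjusted p = 0.0860) and 0.81 within the low-share set (edgeR adjusted p = 0.00622), and Gm42047 had 0.56 and 1.01 (edgeR adjusted p = 0.237 and 0.0299).

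Step by step, 23 lincRNAs changed between day 7 and day 14, 19 higher and 4 lower, where 6.00% of all genes were called (2.77% higher, 3.23% lower). This step and the comparison of day 7 with day 0 share the day 7 libraries. Neat1 rose by a log2 fold change of 1.20 (edgeR adjusted p = 0.0227), Malat1 by 0.71 (edgeR adjusted p = 0.0384) and the let-7 host by 1.10 (edgeR adjusted p = 0.0333). The count was 2 with the covariate and 6 to 30 when single libraries were left out: 6 without day 14 replicate 2, 7 without day 7 replicate 3 or 4, 10 without day 7 replicate 1 or day 14 replicate 3, and 30 without the low-share day 14 replicate 1. All day 7 libraries and only 1 of the day 14 libraries had a low share, so day and share can hardly be told apart in this step. Between day 14 and day 21 edgeR called no lincRNA, where 0% of all genes were called. At an unadjusted p under 0.05 there were 13, and DESeq2 called 1.

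Many lincRNAs lie beside a protein-coding gene. Of the 163, 25 start within 1 kilobase of a protein-coding start and run away from it, which is the arrangement of a shared promoter that fires both ways. Of these 25, 7 were called at day 7, 1 at day 14 and 2 at day 21, and the neighbour was called in 4 on each day, where 16.1%, 23.1% and 22.5% of all genes were called. The share of neighbours called was therefore at or below that of all genes. Both were called in 0 pairs at days 7 and 14 and in 1 pair at day 21: Gm20554 and the airway transcription factor gene Irx2, 256 bases apart (named after their values were seen), which both fell (-1.16 and -1.72). The Pearson correlation between the log2 fold changes of the 25 pairs, which share libraries, was 0.27, 0.14 and 0.29 on the 3 days. Of 123 members with a protein-coding start between 1 and 100 kilobases away, or closer but in another arrangement, 103 had a tested neighbour. In these, 38, 27 and 29 members and 16, 23 and 23 neighbours were called on the 3 days, and the Pearson correlation of the log2 fold changes was 0.35, 0.21 and 0.23. Both genes were called in 7, 7 and 5 pairs, and in 6, 7 and 5 of them in the same direction. Gm38102 and Rhof were the opposite pair at day 7. How many joint calls these numbers would give without any link between neighbours was not computed, so no link is read from them.

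The 53 lincRNAs that fell at day 7 and the other 110 were also compared in features that the selection did not use, as a description. The fallers had a median exon length of 2799 bases against 2354, and 15 of 53 (28.3%) had a single exon block against 20 of 110 (18.2%). Exons that overlap another gene were present in 26 of 53 (49.1%) against 25 of 110 (22.7%), and a start shared with a protein-coding gene in 7 (13.2%) against 18 (16.4%). Their median day 0 level, which the selection and the call itself used, was 7.22 CPM against 3.86 CPM. Of the 21 lincRNAs that were higher on any day, none had such a shared start.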

How the data were processed

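Whole-lung polyadenylated RNA of 15 libraries was sequenced by the authors, who aligned reads to mm10 with HISAT2, left out reads that mapped to several places and deposited raw HTSeq counts per gene. Which annotation was counted, and with which strand option, is not given in the sources used here; the library kit does not mark strand. Gene types and positions came from GENCODE M21 (33267 of 33340 genes matched by identifier), and sequences came from RefSeq (GRCm38.p6). Counts of all genes that passed filterByExpr (17457) were TMM-normalized and fitted with edgeR 4.0.16 (quasi-likelihood test, all 15 libraries, Benjamini-Hochberg adjustment); the common biological coefficient of variation was 22.8%. Log2 fold changes were taken from the edgeR fits. Total counts of 15652008 to 18020661 per library set the precision, and intervals of counting error were not computed. Named lincRNAs were the 6 with the highest CPM, those on the lists, the 8 largest called changes in each direction and day, those called alike on all 3 days, called hosts of small RNAs and those next to the threshold. The lincRNAs and lists were chosen with earlier results of these data known. Alternatives covered scaling, filters, DESeq2 1.42.0, glmTreat, a replicate block, the mitochondrial share and single libraries left out. The code was tested on simulated data.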

Additional observations from a re-analysis of the deposited data

Results flagged for a closer look

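Among 150 groups of 4 libraries tested for the named lincRNAs, 7 had a library whose gap to the nearest of the others exceeded Dixon's critical ratio, which chance passes in about 5% of groups. Day 14 replicate 3 held 185 CPM of Gm42047, while the other day 14 libraries held 66.4 to 75.5 CPM. Day 7 replicate 4 held 8.62 CPM of Meg3, while the others held 3.15 to 3.54 CPM. Carmn stood at 7.28 CPM in day 0 replicate 4, the library whose title and treatment label differ, against 1.66 to 2.12 CPM. For Gm27028 the value was 4.17 CPM in day 14 replicate 3, against 3.76 to 3.78 CPM. E130102H24Rik had 3.55 CPM in day 7 replicate 3, against 2.25 to 2.40 CPM. Gm6093 had 0.786 CPM in day 7 replicate 2, against 0.0563 to 0.117 CPM. Gm30928 had 4.25 CPM in day 0 replicate 2, against 3.39 to 3.51 CPM.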

How the results depend on the processing

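The count of changed lincRNAs at day 7 (56) was 11 when glmTreat tested against the fold threshold, 14 with the mitochondrial share as a covariate, 30 within libraries under a share of 2.5%, 25 among lincRNAs of at least 5 CPM and 28 among those with no exon overlap. At day 14 the count (34) was 12 with glmTreat, 59 among lincRNAs of at least 1 CPM (269 in the count table), 10 at 5 CPM or more and 21 without exon overlap. At day 21 (39) these values were 17, 63, 12 and 25. Between days 7 and 14 (23) the count was 1 with glmTreat, 2 with the covariate, 40 with DESeq2, 9 at 5 CPM or more and 14 without exon overlap. Between days 14 and 21 (0) it was 1 without the filter on low counts and 1 with DESeq2. The CPM and overlap settings take fewer or more lincRNAs by construction, so their counts are to be read against those numbers. For the other settings the cause was not tested. With single libraries left out the counts ranged from 45 to 62 at day 7, 27 to 34 at day 14, 30 to 40 at day 21, 6 to 30 between days 7 and 14 and 0 to 2 between days 14 and 21, the 2 being without day 14 replicate 1. Between days 7 and 14 the count was also 15 without day 7 replicate 2. Without day 0 replicate 4, whose labels differ, the counts at days 7, 14 and 21 were 52, 27 and 33.

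Whether replicate numbers pair the libraries was not settled. Of 21 pairs with the same number 8 had correlated deviations over 0.1, within a range of -0.24 to 0.40. Pairs with different numbers ranged from -0.33 to 0.26. The main fit used no pairing. With the replicate block the 5 counts were 59, 34, 37, 20 and 0. Of 75 called changes of named lincRNAs, 33 were kept in every alternative run and 57 in every fit with a library left out, and of 1373 values under an alternative 145 lost the call and 0 reversed. DESeq2, both other scalings, the adjusted p alone and a filter at 1 CPM lost 0 of them, glmTreat 36 and the covariate 18. For day 21 no set of libraries of like mitochondrial share could be formed, and lincRNAs at 2 CPM rest on few counts per library.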
